A study of Haplochromis burtoni and Eretmodus cyanostictus and Lepidiolamprologus attenuatus with 30 samples.

Results

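Among the genes measured along the intestines of 3 African cichlid species, 11 differed between the gut ends in opposite directions in 2 of them. They were higher in the posterior than in the anterior end section in Haplochromis burtoni and lower in Lepidiolamprologus attenuatus. The end sections were not always where a gene was highest. The 11 were chosen by their levels in the first and last of 5 gut sections. A gene had to have a mean of at least 5 CPM (counts of the gene, scaled to the same total of gene counts in every library) over the libraries of each of these species. In addition, log2(CPM + 1) of section 5 minus section 1 had to be at least 0.5 in both H. burtoni fish with a mean of at least 1, and at most -0.5 in both L. attenuatus fish with a mean of at most -1. Of 38425 genes in the count table, 12348 passed the CPM minimum, 1265 of these met the H. burtoni condition (10.2%), 677 met the L. attenuatus condition (5.48%) and 11 met both. The opposite pattern, anterior in H. burtoni and posterior in L. attenuatus, was met by 255 genes. Its 2 conditions, of the same sizes, were met by 1072 genes in H. burtoni and by 2650 in L. attenuatus.

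The RNA came from whole intestines of 2 fish per species, H. burtoni (fish 1 and 2), Eretmodus cyanostictus (fish 3 and 4) and L. attenuatus (fish 6 and 7). Each intestine was cut into 5 stretches of the same length, from section 1 at the anterior end to section 5 at the posterior end, and each stretch gave 1 library, 30 in all. A group is 1 section of 1 species, with 2 fish. The sources used here give no treatment, age, sex or strain for any fish, and a section number marks a relative position, not an anatomical landmark.

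In the fish intestine, as in that of mammals, digestion and absorption are divided along the length. The anterior part does most of the uptake of lipids, sugars and small peptides, while the posterior part of many fishes holds enterocytes that take up intact protein by endocytosis and digest it in large lysosomes. The hindmost stretch is known for water and salt absorption. A gene expressed in 1 stretch therefore marks a zone of the gut, and the position of such zones can differ between species whose guts differ in length and diet.

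The genes are identified by number. None (0) of the numbers matched the 28690 genes of the reference table for H. burtoni (assembly NCSU_Asbu1), so no names, functions, positions or sequences are given, and gut marker genes could not be looked up to check the tissue. The genes are called members 1 to 11 here, in order of the difference between the 2 species' means in the rule. Numbers are given for 4 of them, members 1 (gene ID 100703770), 2 (100697071), 4 (100698775) and 7 (100691598).

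Libraries held 6311892 to 11353391 counts on genes. The library of H. burtoni fish 2, section 4 had the lowest depth and the highest share of counts overlapping no annotated gene, at 16.5% against 6.15% to 10.5% in the other 29. Tests that rest on section 4 of H. burtoni are therefore given with and without it. On the CPM scale the median of the 12348 genes for section 5 minus section 1 was not 0: it was 0.50 and 0.34 in the L. attenuatus fish, 0.18 and 0.04 in the H. burtoni fish, and 0.32 and 0.10 in the E. cyanostictus fish. With libraries scaled by edgeR's TMM factors these medians lay between -0.03 and 0.10. Applied to TMM-scaled values, the same rule gave 24 genes, including 10 of the 11 (all but member 10), and the opposite pattern 202. In a bulk library, fewer cells of a type and less RNA per cell cannot be told apart.

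**Figure D1:**
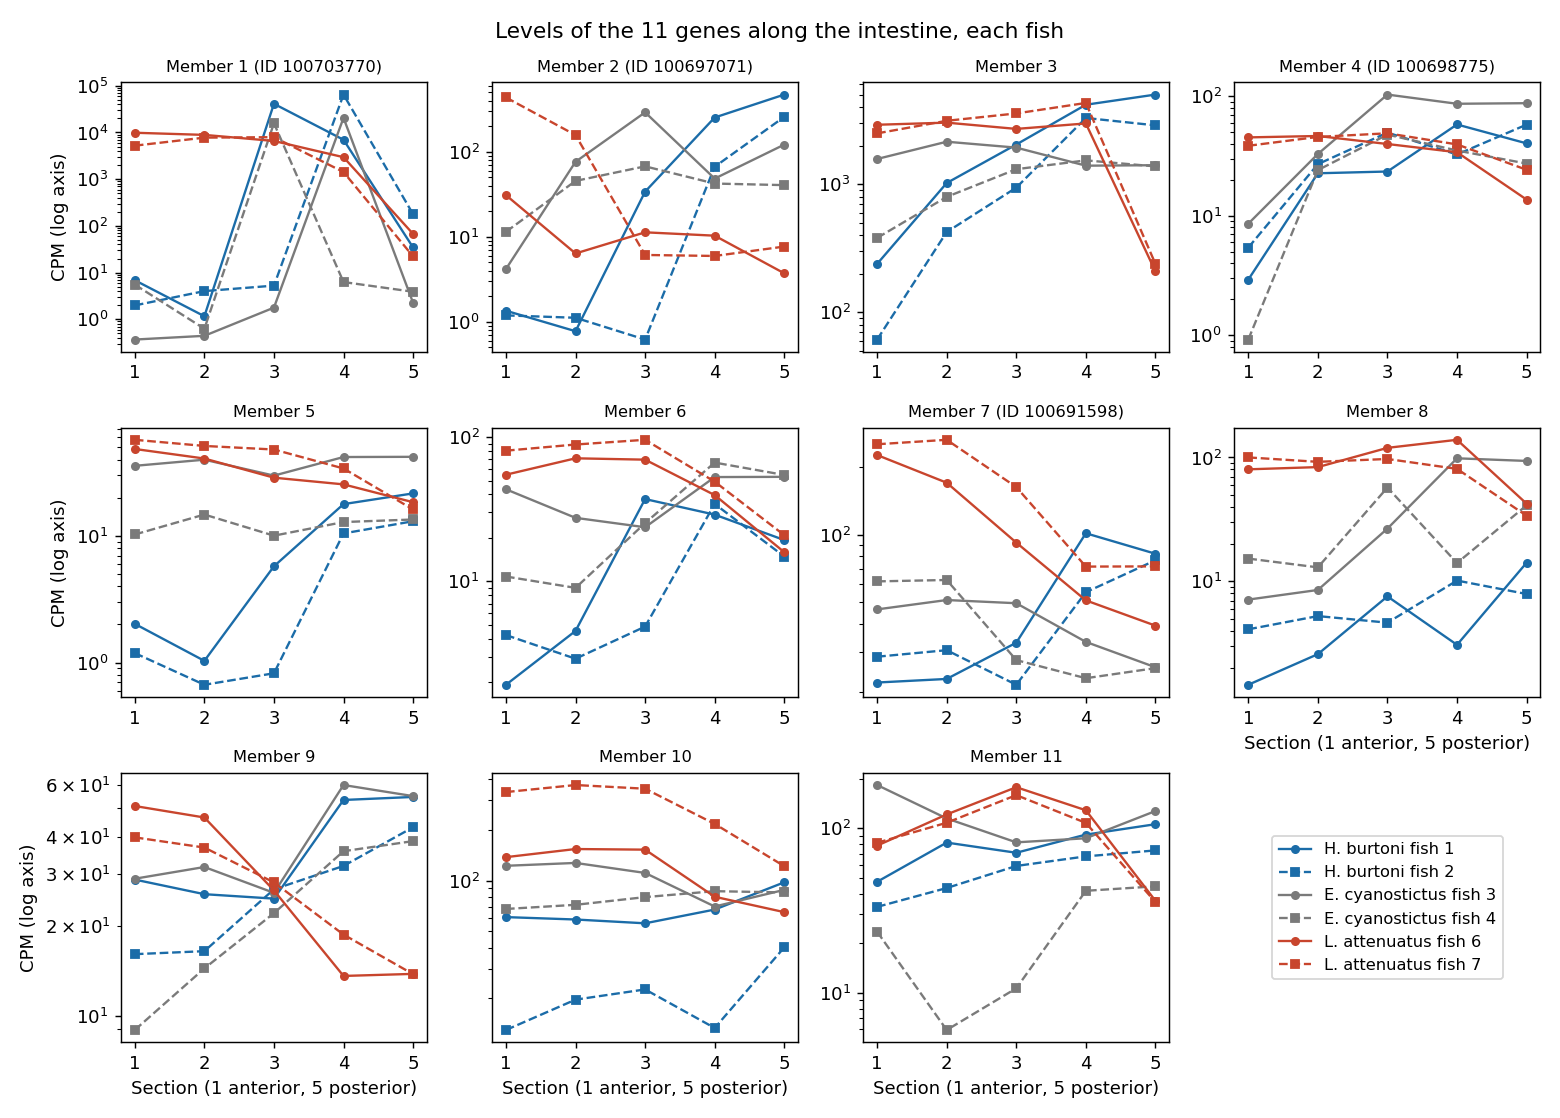
CPM (log axis, a separate scale in each panel) of the 11 genes in sections 1 to 5, 1 line per fish, coloured by species. The H. burtoni lines end higher than they start and the L. attenuatus lines end lower, as the rule required, while member 1 reaches 41131 and 64804 CPM in a single section of each H. burtoni fish and stays between 1423 and 9868 CPM in sections 1 to 4 of L. attenuatus.

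Member 1 was the most abundant of the 11 and had the sharpest position along the gut. In H. burtoni fish 1 it was at 6.86, 1.16, 41131, 6983 and 34.5 CPM in sections 1 to 5. The values of H. burtoni fish 2 were 1.98, 4.01, 5.25, 64804 and 178 CPM. In L. attenuatus fish 6 it was at 9868, 8880, 6582, 2959 and 67.2 CPM, and in fish 7 at 5221, 7761, 7935, 1423 and 22.2 CPM. Its posterior position in H. burtoni was therefore a peak in section 3 or 4, since section 5 of both fish was far below that peak, and section 5 was also at 22.2 to 178 CPM in both species.

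At its peak, member 1 was the most abundant gene of the library, with 4.11% of the gene counts in section 3 of fish 1 and 6.48% in section 4 of fish 2. The second of these is the library with the high unassigned share. The peak of fish 1 does not depend on that library. In L. attenuatus the gene took between 0.142% and 0.987% in sections 1 to 4 and was never first. The 2 H. burtoni fish differed in section 3 by 7828-fold, so a mean over fish says little about this gene in any one section.

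E. cyanostictus, which took no part in the choice, had a narrow peak of member 1 as well. In fish 3 the gene was at 20557 CPM in section 4 and between 0.368 and 2.25 CPM in the other sections, where the lowest libraries held 3 and 4 counts. In fish 4 it was at 15743 CPM in section 3 and between 0.627 and 6.27 CPM elsewhere. It was the most abundant gene of the library at both peaks. The 2 fish thus differed by 1 section in the position of the peak, as the 2 H. burtoni fish did.

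Summed over sections 2 to 4, which hold the peaks of the H. burtoni and E. cyanostictus fish, the fish of a species were close. This sum leaves out section 1, where the L. attenuatus fish had 9868 and 5221 CPM. The sums of H. burtoni came to 16505 and 16372 CPM of member 1. Those of E. cyanostictus were 5314 and 5306 CPM, while L. attenuatus had 6079 and 5890 CPM. In these sums both H. burtoni fish were above the other 4, which lay close together. The change was -1.88 on the log2 scale for E. cyanostictus over H. burtoni (SE 0.45, edgeR adjusted p = 0.0441) and -1.47 for L. attenuatus over H. burtoni (SE 0.45, edgeR adjusted p = 0.0707), which missed the threshold of 0.05. The first call was lost without H. burtoni fish 1 (edgeR adjusted p = 0.160), without H. burtoni fish 2 (0.197) or without E. cyanostictus fish 4 (0.0563). With sections 2 and 3 alone, which leaves out the peak of H. burtoni fish 2 and of E. cyanostictus fish 3, it was lost too (0.732). On the same 2 sections the change for L. attenuatus over H. burtoni was -0.42 (edgeR adjusted p = 0.941). Summed over all 5 sections, it was -0.81 (edgeR adjusted p = 0.179), and that for E. cyanostictus over H. burtoni was -1.82 (0.0333).

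Member 2 was at about 1 CPM in sections 1 and 2 of H. burtoni and at 4.17 CPM or more in the same sections of the other species. In H. burtoni fish 1 it was at 1.35, 0.775, 33.9, 253 and 470 CPM in sections 1 to 5, and in fish 2 at 1.19, 1.12, 0.618, 66.5 and 257 CPM. The 3 anterior values of fish 2 rest on 6 to 10 counts. L. attenuatus fish 7 had 435, 157, 6.11, 5.95 and 7.67 CPM, while fish 6 had 30.9, 6.36, 11.3, 10.3 and 3.72 CPM. The direction was the same in both L. attenuatus fish, but the level in section 1 differed 14.1-fold between them. In E. cyanostictus it was lowest in section 1 (4.17 and 11.4 CPM in fish 3 and 4) and highest in section 3 (291 and 67.4 CPM).

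Member 4 was low only in section 1 of H. burtoni and E. cyanostictus, and in L. attenuatus it was lowest in section 5. H. burtoni fish 1 had 2.92, 22.7, 23.5, 58.2 and 40.4 CPM and fish 2 had 5.42, 27.1, 49.8, 32.6 and 58.1 CPM. In E. cyanostictus the values were 8.59, 33.0, 104, 86.8 and 87.8 CPM in fish 3 and 0.921, 24.2, 47.9, 35.2 and 27.4 CPM in fish 4. Section 1 of fish 4 rests on 7 counts. In L. attenuatus sections 1 to 4 were between 34.1 and 49.1 CPM and section 5 was at 13.7 and 24.3 CPM in fish 6 and 7. In section 2 both L. attenuatus fish (46.6 and 45.8 CPM) were above the other 4 fish, and in sections 3 and 4 the 3 species overlapped.

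Member 7 differed along the gut in opposite directions in the 2 species. In L. attenuatus fish 6 it was at 225, 170, 92.1, 51.0 and 39.4 CPM, and in fish 7 at 252, 263, 162, 72.1 and 72.2 CPM. In H. burtoni it was between 21.5 and 33.1 CPM in sections 1 to 3 of both fish, at 101 and 55.5 CPM in section 4 and at 82.2 and 76.8 CPM in section 5. E. cyanostictus followed L. attenuatus in direction at a lower level, with 46.5, 51.2, 49.6, 33.4 and 25.8 CPM in fish 3 and 61.9, 62.8, 27.7, 23.0 and 25.5 CPM in fish 4. In section 5 both H. burtoni fish were above the other 4, and in sections 1 and 2 both were below them.

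Among the other 7 members, member 3 was abundant in all 3 species, at 61.5 to 5002 CPM in H. burtoni, 381 to 2145 in E. cyanostictus and 209 to 4304 in L. attenuatus. In L. attenuatus it was at 2493 CPM or more in all 8 libraries of sections 1 to 4 and at 209 and 239 CPM in section 5, so its difference between the ends lay in the last section. In H. burtoni it was at 239 and 61.5 CPM in section 1 and at 4168 and 3286 CPM in section 4. Member 5 was at 0.669 to 2.02 CPM in sections 1 and 2 of H. burtoni and at 10.5 to 21.6 CPM in sections 4 and 5, against 16.2 to 57.3 CPM along the whole gut of L. attenuatus. Member 6 was at 1.91 to 4.52 CPM in sections 1 and 2 of H. burtoni and at 54.9 to 88.9 CPM in the same sections of L. attenuatus. In section 5 these species overlapped for member 6, with 19.3 and 14.8 CPM against 15.9 and 20.9 CPM.

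Member 8 was separated by level, at 1.46 to 14.1 CPM in H. burtoni and 33.9 to 139 CPM in L. attenuatus with no overlap in any section. Member 9 had similar levels in both species and crossed in the middle, where the H. burtoni fish had 24.8 and 26.7 CPM and the L. attenuatus fish 26.5 and 28.2 CPM. Member 10 was at 13.0 to 97.7 CPM in H. burtoni and 65.0 to 370 CPM in L. attenuatus, and the 2 fish of each species differed widely. Member 11 was highest in section 3 of both L. attenuatus fish (178 and 159 CPM) and at 36.3 and 35.6 CPM in section 5. Both genes lay close to the limits of the rule. Member 10 had a mean of 1.12 in H. burtoni and member 11 a mean of 1.13, against a limit of 1, while the nearest gene outside had a mean of 0.95 there with -2.06 in L. attenuatus.

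The shape of the profiles differed among the members. Counting each member in each fish as 1 profile gives 22 per species. These are not independent units, and the same shares over all genes were not counted. In H. burtoni 14 profiles were highest in section 5, 6 in section 4 and 2 in section 3. In L. attenuatus section 5 was the lowest in 19 of 22 profiles and section 4 in the other 3, while 9 profiles were highest in section 1, 6 in section 2, 5 in section 3 and 2 in section 4. The rule excludes section 1 as the highest in H. burtoni and section 5 as the highest in L. attenuatus, so these counts only describe where between the ends the levels turned. In E. cyanostictus 1 profile was highest in section 1, 5 in section 2, 6 in section 3, 6 in section 4 and 4 in section 5. The 2 fish of a species often peaked in different sections. Both H. burtoni fish were highest in section 5 at 5 members, and they shared no other peak section. Both L. attenuatus fish were highest in section 1 at 3 members, in section 2 at 1 and in section 3 at 1. Both E. cyanostictus fish were highest in section 2 at 1 member and in section 3 at 2.

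**Figure D2:**
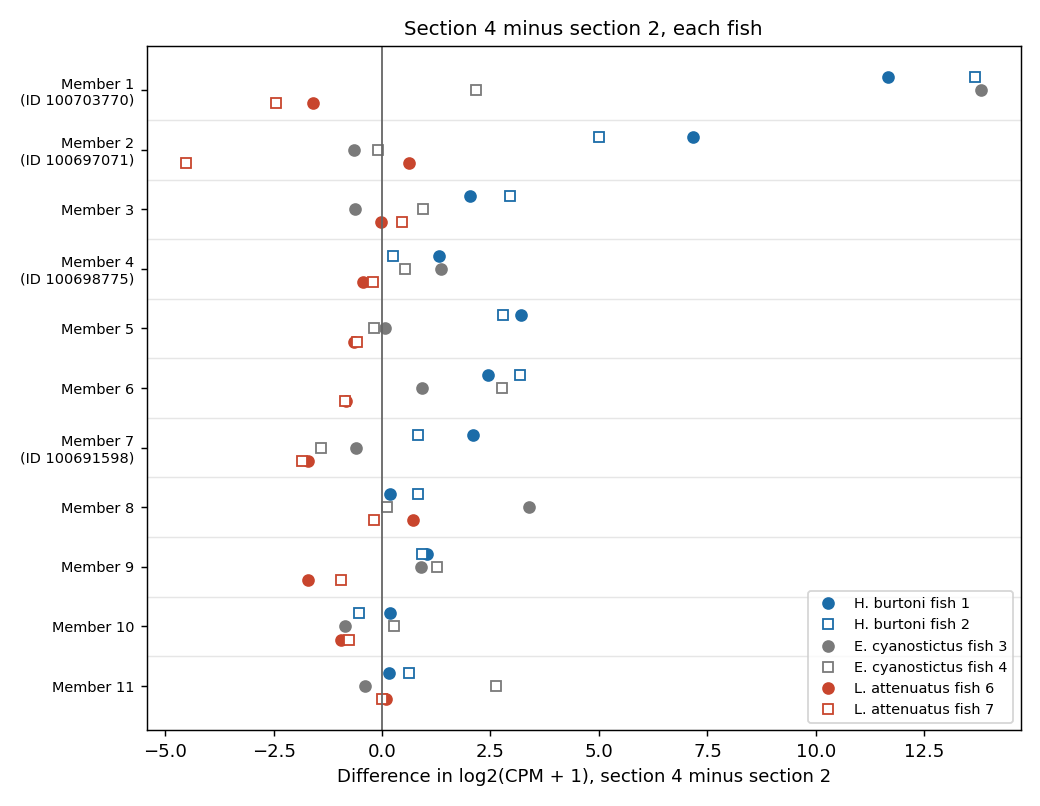
Section 4 minus section 2 in log2(CPM + 1) for each of the 11 genes, 1 point per fish (filled, the lower fish number of the species). Neither section was used to choose a direction, but both adjoin the end sections of the same fish, which were. The H. burtoni points lie above both L. attenuatus points at 10 of 11 genes, the exception being member 8, and the E. cyanostictus points follow no single species.

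Whether the opposite slopes held in the middle of the gut was asked with sections 2 and 4, which the rule used only in the CPM minimum. They come from the same fish as sections 1 and 5 and adjoin them. A gene chosen for a difference between the ends is therefore more likely to differ the same way between sections 2 and 4. The shares below are over all genes, not over genes chosen this way. The counts thus describe the members and are not independent support for the opposite slopes. Section 4 minus section 2 was above 0 in both H. burtoni fish at 10 of 11 members, against 31.7% of the 12348 genes, and below 0 in both L. attenuatus fish at 7 of 11, against 15.7%. None (0) was below 0 in both H. burtoni fish (29.7% of genes) or above 0 in both L. attenuatus fish (66.8%). In H. burtoni fish 1 alone, without the library that stands apart, 11 of 11 were above 0 (61.0% of genes). With TMM scaling, 9 members were above 0 in both H. burtoni fish and 8 below 0 in both L. attenuatus fish. Both conditions together held at 6 members (1, 4, 5, 6, 7 and 9), against 1.51% of genes. Both H. burtoni fish were above both L. attenuatus fish at 10 members, against 10.1%. Member 8 overlapped, with 0.18 and 0.84 in H. burtoni and 0.73 and -0.19 in L. attenuatus.

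Tested one gene at a time, few of these differences passed. In L. attenuatus, section 4 over section 2 fell at 2 of 11 members (edgeR adjusted p under 0.05; 1.56% of 19697 genes fell and 3.7% changed). Member 7 went from 170 and 263 CPM to 51.0 and 72.1 CPM, a log2 change of -2.19 (SE 0.45, edgeR adjusted p = 0.0402). Member 9 went from 46.6 and 36.9 CPM to 13.6 and 18.8 CPM, a change of -1.73 (SE 0.29, edgeR adjusted p = 0.0192). When sections were compared within each intestine, with the fish as a block, 6 members fell (1, 5, 6, 7, 9 and 10), when 6.29% of genes fell. The fits without fish 6 or without fish 7 also hold the other species' libraries. Their comparator is the fit of all 30 libraries, where only member 7 was called, at -2.20 (edgeR adjusted p = 0.00756). Neither member 7 nor member 9 was called without fish 6 or without fish 7. The change of member 7 was then -2.21 and -2.18.

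In H. burtoni no member (0 of 11) passed for section 4 over section 2 (0.85% of 19886 genes did), although 7 had an unadjusted p under 0.05 (16.0% of genes) and DESeq2 called 6 (3.84%). The lowest edgeR adjusted p was 0.0596, at member 7, which went from 22.9 and 30.7 CPM to 101 and 55.5 CPM, a log2 change of 1.54 (SE 0.30). Members 2, 3, 5 and 7 rose with the fish as a block (2.9% of genes rose). The block left member 7 with an edgeR adjusted p of 0.0266 and member 2 with 0.0307. In a fit of the 29 libraries of all species other than fish 2, section 4, members 2, 5 and 7 rose (2.34% of genes), with an edgeR adjusted p of 0.0282 for member 2 and 0.0320 for member 7. The fit of all 30 libraries, its nearest comparator, called member 2 (0.0373) but not member 5 (0.0501) or member 7 (0.0538). Member 1 had the largest change of the 11, 13.81 on the log2 scale (SE 3.68), but did not pass (edgeR adjusted p = 0.118, and 0.101 once blocked).

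The difference between the species was tested directly as section 4 over section 2 in L. attenuatus minus the same in H. burtoni. All 11 members had a negative value, with a median of -2.70, where the median of the 21297 genes tested was -0.02. The choice of the members by the end sections of the same fish favours a negative value. The difference passed at 2 members, both negative (0.0563% of genes were called in this direction and 0.178% in either), and 8 had an unadjusted p under 0.05 (9.6%). For member 7 it was -3.72 (SE 0.57, edgeR adjusted p = 0.0165) and for member 5 it was -5.02 (SE 0.89, edgeR adjusted p = 0.0423). In H. burtoni the mean of member 5 was above the CPM minimum of 5 only in sections 4 and 5 (14.1 and 17.3 CPM). Its level in section 4 thus helped it past that minimum (7.45 CPM over all H. burtoni libraries), and its test is not free of the rule. In the per-fish values, member 5 was 3.21 and 2.78 higher in section 4 in H. burtoni and 0.66 and 0.58 lower in L. attenuatus, while member 7 was 2.10 and 0.83 higher and 1.72 and 1.86 lower.

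With the fish as a block 5 members were called (3, 5, 6, 7 and 9; 0.521% of genes in this direction). Fits without 1 of the 4 fish also hold the E. cyanostictus libraries, so their comparator is the fit of all 30 libraries. Member 7 was called in that fit and was not called without any 1 of these fish. Its difference lay between -4.16 and -3.14 in these fits. In the fit of 29 libraries without H. burtoni fish 2, section 4, member 7 was called (edgeR adjusted p = 0.0111; 0.0514% of genes in this direction) and member 5 was not (0.209), as in the fit of all 30 libraries (0.0115 and 0.278), and 10 of 11 members had a negative value.

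**Figure D3:**
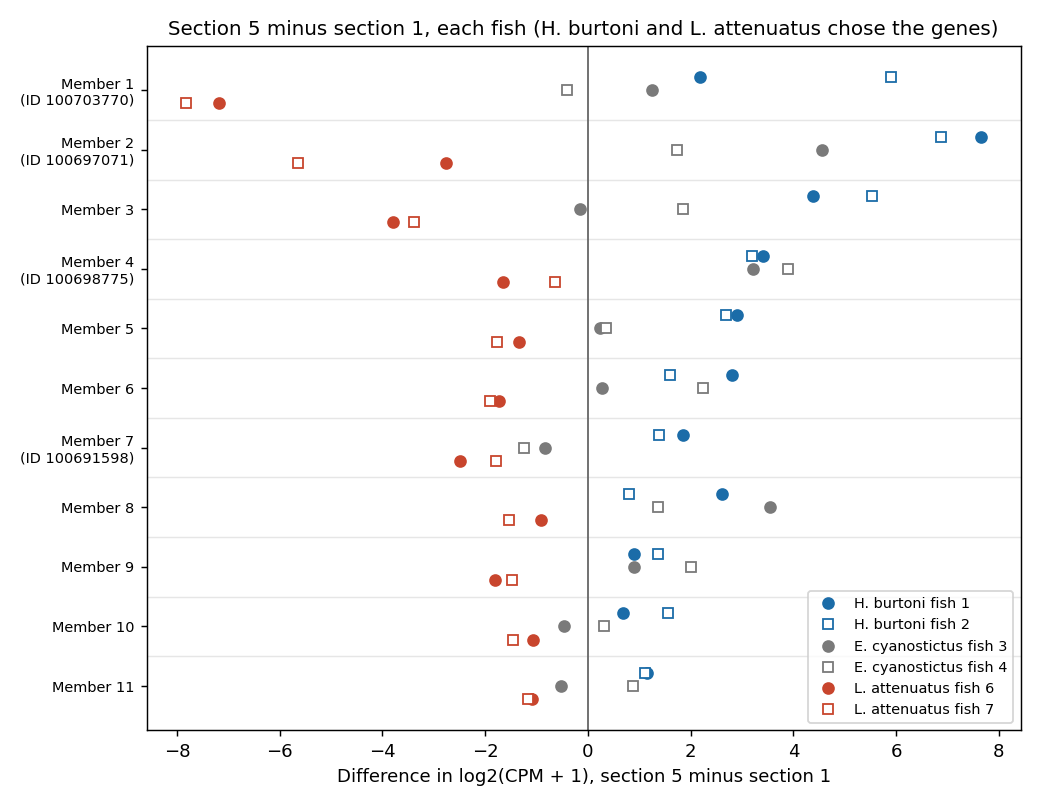
Section 5 minus section 1 in log2(CPM + 1) for each of the 11 genes, 1 point per fish (filled, the lower fish number of the species). H. burtoni and L. attenuatus lie on opposite sides of 0 because the rule chose genes for this. Both E. cyanostictus fish lie above 0 at members 2, 4, 5, 6, 8 and 9 and below 0 at member 7. At members 5 and 6 the difference is below the size used in the rule in 1 fish or both. The share of all genes above 0 in both fish was not counted, and the median over 12348 genes was above 0 in each (0.32 and 0.10).

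In E. cyanostictus the 11 genes did not share a direction from section 1 to section 5. By the sizes used in the rule, 4 members were higher in section 5 (2, 4, 8 and 9; 8.42% of the 12348 genes) and 1 was lower (member 7; 2.83%). Members 5 (0.23 and 0.36) and 6 (0.28 and 2.24) were above 0 in both fish without reaching that size. The 2 fish had opposite signs at 4 members (1, 3, 10 and 11; 43.3% of genes). The differences of fish 3 and 4 were 4.56 and 1.74 at member 2, 3.21 and 3.89 at member 4, 3.55 and 1.37 at member 8, 0.90 and 2.0 at member 9, and -0.83 and -1.25 at member 7. Without fish 4, member 7 no longer reached the size of the rule, and without fish 3 the count of higher members was 6.

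No member (0 of 11) passed the test of section 5 over section 1 in E. cyanostictus (0.0289% of 20733 genes did), with 4 at an unadjusted p under 0.05 (10.2% of genes), and DESeq2 called 3 (3.03%). Member 4 had a log2 change of 3.25 (SE 1.15, edgeR adjusted p = 0.388), and it was the 1 member called with the fish as a block, at 3.46 (SE 0.57, edgeR adjusted p = 0.0327; 1.46% of genes rose). It also passed in a fit of all 30 libraries. Member 7 had -1.30 (SE 0.34, edgeR adjusted p = 0.229, and 0.0719 once blocked by fish), and member 2 had 3.20 (SE 0.91, edgeR adjusted p = 0.270, and 0.116 once blocked). Leaving out fish 3, in a fit with all other libraries, gave 1 called member, and leaving out fish 4 gave 2.

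Section 4 over section 2 gave no call at any of the 11 members in E. cyanostictus, where edgeR called 0 of 20733 genes (0.0%), 1998 had an unadjusted p under 0.05 and DESeq2 called 851 (2.84%). Of the 11, 3 had an unadjusted p under 0.05 (9.64% of genes), namely members 1, 7 and 8, and DESeq2 called 1. Section 4 minus section 2 was above 0 in both fish at 5 members (36.9% of genes) and below 0 in both at 2 (21.9%), which were members 2 and 7. Member 7 was lower in section 4 by 0.60 and 1.41 in fish 3 and 4. Member 9 was higher by 0.90 and 1.26, close to the 1.03 and 0.92 of H. burtoni and away from the -1.70 and -0.94 of L. attenuatus.

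**Figure D4:**
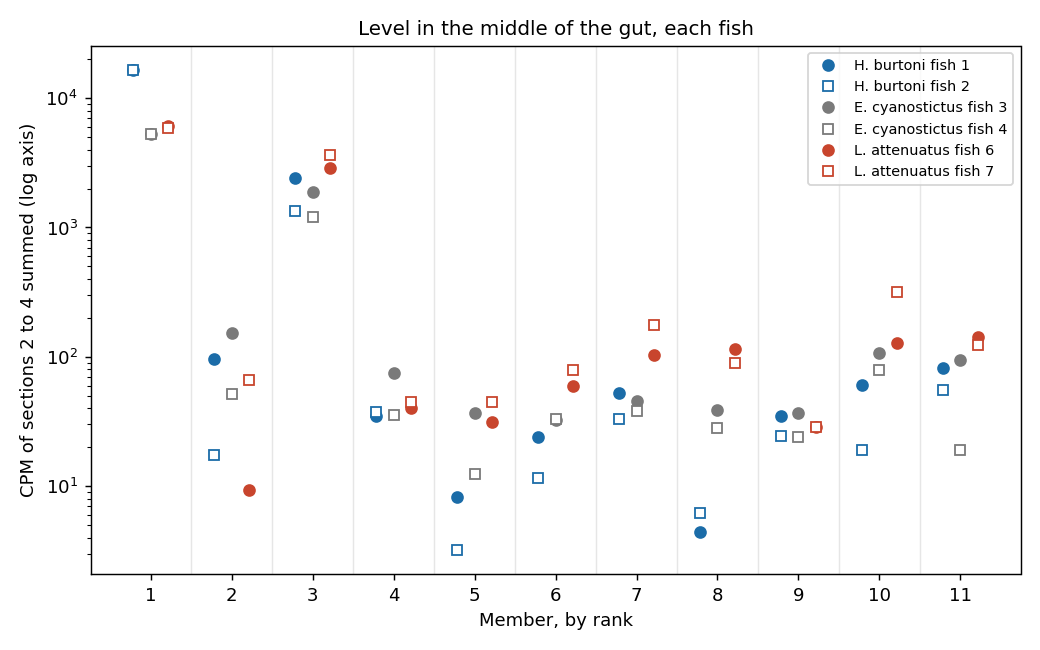
CPM of sections 2, 3 and 4 summed (log axis) for each of the 11 genes, 1 point per fish (filled, the lower fish number of the species). Both L. attenuatus fish lie above both H. burtoni fish at members 3, 4, 5, 6, 7, 8, 10 and 11, most widely at member 8, and below both at member 1. The share of all genes separated in this way was not counted. In the edgeR test of this pair 6 of 11 members had an unadjusted p under 0.05, and so did 33.2% of 23338 genes.

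The level of the genes was compared between species on the counts of sections 2 to 4, summed per fish. This leaves out the sections by which the rule chose a direction. Sections 2 to 4 still counted in its CPM minimum of 5, and members 5 and 8 lay near it in H. burtoni, with means of 7.45 and 6.08 CPM. Members 5, 6, 7 and 8 were higher in L. attenuatus than in H. burtoni and none (0) was lower (edgeR adjusted p under 0.05; 6.68% of 23338 genes were higher and 7.54% lower). DESeq2 called 6 members (17.1% of genes), 1 of them lower, which was member 1 at -1.46 (DESeq2 adjusted p = 2.58e-07). Member 8 was at 4.46 and 6.24 CPM in the H. burtoni fish. It reached 38.9 and 28.2 CPM in the E. cyanostictus fish, and 115 and 90.3 CPM in the L. attenuatus fish, with no overlap between the species. Its log2 change was 4.24 for L. attenuatus over H. burtoni (SE 0.36, edgeR adjusted p = 0.00312). It was 2.41 for E. cyanostictus over H. burtoni (SE 0.33, edgeR adjusted p = 0.0120) and -1.83 for E. cyanostictus over L. attenuatus (SE 0.32, edgeR adjusted p = 0.0165). The first of these 3 calls held in every alternative run, with adjusted p-values up to 0.0359, while over their alternatives those of the other two calls reached 0.0720 and 0.0731.

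Member 7 was at 52.8 and 33.4 CPM in the H. burtoni fish, close to the 45.9 and 38.0 CPM of E. cyanostictus, and at 103 and 176 CPM in the L. attenuatus fish. Its log2 change was 1.71 for L. attenuatus over H. burtoni (SE 0.41, edgeR adjusted p = 0.0387) and -1.98 for E. cyanostictus over L. attenuatus (SE 0.41, edgeR adjusted p = 0.0248). For E. cyanostictus over H. burtoni it was -0.27 (SE 0.40, edgeR adjusted p = 0.686), and the 2 species overlapped. Members 5 and 6 were at 8.30 and 3.20 CPM and at 24.0 and 11.6 CPM in H. burtoni, against 31.6 and 45.1 CPM and 59.8 and 78.9 CPM in L. attenuatus. Member 5 changed by 2.75 (SE 0.69, edgeR adjusted p = 0.0444) and member 6 by 1.97 (SE 0.39, edgeR adjusted p = 0.0254). Sections 2 and 3 alone leave out section 4 of every fish, with it the H. burtoni library that stands apart. On these 2 sections, members 5, 7, 8 and 10 were called (11.7% of genes) and member 6 was not (0.0604). Member 7 changed by 2.78 and member 5 by 4.39. The median of the 11 members was 2.54, against 0.94 with section 4 and 0.72 with all 5 sections. Over all genes the median on sections 2 and 3 was -0.01. Sections 2 and 3 lie nearer the anterior end, where the rule asked for lower levels in H. burtoni and higher in L. attenuatus than posteriorly.

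Over these pairs, 4 members were called for L. attenuatus over H. burtoni (14.2% of genes), 2 for E. cyanostictus over H. burtoni (members 1 and 8; 11.9%) and 2 for E. cyanostictus over L. attenuatus (members 7 and 8; 15.3%). With 1 fish left out, a species held 1 fish, and fewer genes were called over the whole table in every such fit. Fewer members were called too, except without E. cyanostictus fish 3. The median change of the 11 members for the first pair was then between 0.708 and 1.25, against 0.944 with all fish. For the second pair it was between -0.469 and 0.73, against 0.395. For the third pair it was between -1.77 and -0.588, against -1.31. One set of gene numbers serves all 3 species in the table, and the reference behind it is not given in the sources used here. How well each species' reads align to it is part of any level compared between species, and was not tested.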

How the data were processed

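The authors deposited 1 table of raw counts per gene, with 38425 genes and 30 libraries. Trimmomatic, STAR and HTSeq are named, without versions or settings, in the submitters' processing notes. The genome build, the annotation and the strand setting are not given in the sources used here, so overlapping or near-identical genes may share counts. The last 5 rows hold unassigned reads. These were left out of library sizes and tests, and 3 of them were 0 throughout. Reads on no feature made up 6.15% to 16.5% of counts per library and reads on several genes 2.58% to 3.45%.

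Fish 3, 4, 6 and 7 carry the numbers of the table's columns, while the labels use 1 and 2 in every species. Species and section were read from the column names. By the labels' protocols each intestine was cut into sections. That columns with the same fish number come from 1 intestine was read from the column names. For fish 3, 4, 6 and 7 these numbers are not among the labels. Across 14286 genes, differences between the 2 fish of a species correlated between all 10 pairs of sections (r from 0.190 to 0.785 in H. burtoni, 0.288 to 0.893 in E. cyanostictus and 0.336 to 0.805 in L. attenuatus), so the fish was used as a block in an alternative fit. No pair of libraries was treated as 1 sample, as the counts of both fish of a group always differed beyond counting error (chi-square per degree of freedom 12.6 to 141). With 2 fish per group, p-values of the main section tests rest on the spread between these fish, pooled over groups. Those tests treat the libraries of 1 fish as independent. With the fish as a block, p-values rest on the spread left after each fish's own level.

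CPM were computed here with a pseudocount of 1 on the log2 scale. Tests used edgeR 4.0.16 in R 4.3.3 (filterByExpr, TMM, robust quasi-likelihood F-test, Benjamini-Hochberg adjustment over all genes tested, threshold 0.05), with DESeq2 1.42.0 as an alternative. Sections were tested in the 10 libraries of a species, the difference between species in 20, and summed sections in 6 values, 1 per fish. Fitted changes are on the TMM scale. The SE given with an edgeR change was computed here as the absolute change over the square root of its F statistic. It is not estimated by the fit, so it restates the test and is not a separate measure of spread. The scripts were tested on simulated data. The simulated libraries had no differences shared by the sections of a fish, so this does not check the calls against such differences. All 11 members passed the filter in every fit.

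The members, lists and tests were chosen with earlier results of these data known. Of the 4 numbers printed, 3 follow a rule (mean CPM of at least 20 in each species, then the largest difference among members higher and among members lower in E. cyanostictus). Its further minimum of 10 counts in every library was dropped because too few members met it, for the lower direction the CPM minimum too, and only 1 member was lower. Member 1 was added after its values were seen. Gene lists by symbol could not be used.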

Additional observations from a re-analysis of the deposited data

Results flagged for a closer look

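The change from section 2 to section 4 differed between L. attenuatus and H. burtoni at 2 members, by a direct test of the difference. This test (edgeR, Benjamini-Hochberg adjusted p under 0.05, 2 fish per group) called 0.178% of the 21297 genes, and 0.0563% with a negative value. The difference was -5.02 on the log2 scale at member 5 and -3.72 at member 7 (gene ID 100691598). Per-fish values of both genes did not overlap between the species. The choice of the members by the end sections of the same fish favours a negative value in this test. Neither call held at an edgeR adjusted p under 0.01, and in a fit of all 30 libraries only member 7 was called. The call of member 7 was lost when any 1 fish of these species was left out, with its difference between -4.16 and -3.14. Those fits also hold the E. cyanostictus libraries. Their comparator is the fit of all 30 libraries, so the loss of member 5 cannot be put down to a fish. Member 5 rests on 8 and 6 counts in section 2 of the H. burtoni fish. Its level in section 4 of H. burtoni also helped it past the CPM minimum of the rule. Groups held 2 fish each, too few to look for single outlying values within a group.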

How the results depend on the processing

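The number of genes meeting the rule moved from 11 to 24 with TMM scaling and lay between 8 and 15 under the other settings of pseudocount and CPM minimum. The opposite pattern, 255 genes, gave 129 with a pseudocount of 5 and 123 with a minimum of 20 CPM. The count of members lower in section 5 of E. cyanostictus was 1, and 0 with a pseudocount of 5 or without fish 4 (0 to 1 over the 2 fish).

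For section 4 over 2 in H. burtoni, no member (0) was called, against 2 without a filter, 4 with the replicate block, 6 with DESeq2, 1 in a fit of all 30 libraries and 3 in that fit without the library of fish 2, section 4. In L. attenuatus 2 were called, against 6 with the replicate block and 4 with DESeq2. With all 30 libraries 1 was called, and 0 at an adjusted p under 0.01. Without fish 6 or fish 7 the members' median change was -1.11 or -1.12, against -1.16. The share of all genes called moved too. For H. burtoni it was 0.85% in the main test, 1.14% without a filter, 4.21% with the block and 3.84% with DESeq2. For L. attenuatus it was 3.7%, against 12.8% with the block, 5.05% with DESeq2 and 1.81% with all 30 libraries. So the settings moved calls over all genes, not only those of the members. For the difference between these species 2 were called, against 5 with the block, 6 with DESeq2, 1 with all 30 libraries, 1 in that fit without the library of H. burtoni fish 2, section 4, 0 at 0.01 and 0 without any 1 fish. In E. cyanostictus, section 4 over 2 gave 0 calls, 1 with DESeq2 and 1 without either fish, and section 5 over 1 gave 0, against 1 with the block, 3 with DESeq2, 1 with all 30 libraries and 1 to 2 without a fish. For the summed sections, L. attenuatus over H. burtoni gave 4 calls, 1 at 0.01 and 1 to 2 without a fish. E. cyanostictus over H. burtoni gave 2, 1 with sections 2 and 3 only, 0 at 0.01 and 0 to 3 without a fish. E. cyanostictus over L. attenuatus gave 2, 4 with DESeq2, 0 at 0.01 and 0 to 3 without a fish. The block changed no other call than those given.

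Among the 4 genes given by number, the signs that turned in the values reported did so where no test passed. Signs of other members turned too, including member 11, section 4 over 2 in E. cyanostictus, which was -0.17 and reached 2.88 without fish 3 (edgeR adjusted p = 0.0153). Member 2 (gene ID 100697071), section 4 over 2 in L. attenuatus, ranged from -5.06 to 0.25 with 1 fish left out, 0.25 being without fish 7. Member 1 (100703770), section 5 over 1 in E. cyanostictus, was -0.05, against 0.31 with the block and -0.55 to 2.23 with 1 fish left out. Member 7 (100691598), E. cyanostictus over H. burtoni, was 0.57 with sections 2 and 3 and -0.52 to 0.10 with 1 fish left out. The cause was not tested.

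The share of all genes called moved in other tests as well. For the difference between L. attenuatus and H. burtoni it was 0.178%, against 1.18% with the block and 0.787% with DESeq2. For section 5 over 1 in E. cyanostictus it was 0.0289%, against 2.73% and 3.03%. For L. attenuatus over H. burtoni on the summed sections it was 14.2%, against 17.1% with DESeq2 and 2.15% at 0.01. Counts over all genes moved with the tool, the block, the threshold and the fish left out. In the order above they were, with the range over the alternatives, 169 (0 to 1146), 729 (7 to 2531), 38 (0 to 252), 0 (0 to 851), 6 (0 to 910), 3317 (410 to 5337), 2766 (204 to 4648) and 3565 (423 to 5209). Fits that leave out a fish or that library also hold the other species' libraries, and assume that the lone fish of a group varies like the other groups. Changes of members 1, 2 and 5 rest on as few as 3 to 6 counts in their lowest libraries (for member 5, 8 and 6 counts in section 2 of the H. burtoni fish), so their size is imprecise.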

Other observations

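A gene outside the 11 had nearly the same profile as member 1 (gene ID 100703770). It was the nearest of 14285 genes in log2(CPM + 1) over the 30 libraries (Pearson's r = 0.980, as a description, over libraries that share fish), and the second nearest gene had r = 0.755. The search was made after the values of member 1 were seen. Where member 1 peaked, the gene reached 13886 and 21939 CPM in the H. burtoni fish and 8728 and 6724 CPM in the E. cyanostictus fish, and it was at 2374 to 18510 CPM in sections 1 to 4 of L. attenuatus. Its level relative to member 1 differed by species. In libraries with at least 1000 CPM of member 1 the ratio of their counts was 0.338 to 0.356 in H. burtoni (3 libraries), 0.425 to 0.427 in E. cyanostictus (2 libraries) and 1.23 to 2.05 in L. attenuatus (8 libraries). The gene did not meet the rule, since section 5 was below section 1 in H. burtoni fish 1, at 8.81 against 17.5 CPM. Whether the 2 genes share reads was not tested.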
